A study of Mus musculus with 88 samples.

Results

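Whole hearts of dKO mice fed chow were compared at 43 and 31 days of age. The comparison used the 12 arrays titled dKO at 43 days and the 10 arrays titled dKO at 31 days, 22 of the 88 arrays in the series. The dKO mice were SR-BI-/- apoE-/-, without the high-density lipoprotein receptor encoded by Scarb1 and without apolipoprotein E. By the design text, dKO mice on chow have extensive myocardial infarcts and severely failing hearts at 43 days, small infarcts and heart failure at 31 days, and coronary arteries without detectable disease at 21 days. The 43-day hearts came from mice that had outlived a period of heavy mortality. Also used were hearts of dKO mice on a probucol diet (6 at 43 days and 8 at 31 days), probucol being a lipid-lowering antioxidant drug, and hearts of HET mice on chow (9 at 43 days and 10 at 31 days). HET mice are SR-BI+/- apoE-/- and develop no detectable coronary disease on chow, so every mouse here lacked apolipoprotein E. The dKO chow hearts at 21 days (10 arrays) were set beside the later ages. Each array held 1 mouse.

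After a coronary occlusion, dying heart muscle draws in neutrophils and monocytes, which become macrophages that clear debris. Fibroblasts then lay down and crosslink collagen in place of lost muscle. Surviving cardiomyocytes, which normally run on fatty acids burned in mitochondria, express stress genes and lower genes of oxidative metabolism in the failing heart.

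Levels are log2 signals relative to the median of their array, so 0 is the array median, and each difference is the 43-day minus the 31-day mean with its standard error. Adjusted p-values are from limma, fitted to all 88 arrays, with Benjamini-Hochberg adjustment and a threshold of 0.05. A level can be compared between hearts for 1 probe set, but not between genes. The arrays carried 12488 probe sets, and 5683 genes were tested. Median signals as deposited ran from 46.9 to 75.4 at 43 days and from 38.5 to 65.8 at 31 days, and precision is limited by how many arrays there are. Scarb1, the targeted gene, had levels of 0.78, 1.03 and 1.52 at 43 days, against 0.70, 1.03 and 1.34 at 31 days, and in 28 HET chow hearts of all ages it lay between 1.52 and 2.73. Scarb1 did not pass the test between the ages (0.04 ± 0.13, adjusted p = 0.865). Both Apoe probe sets were below the filter on dim probe sets. All 6 defining cardiomyocyte markers were measured, with a summed signal of 404 to 749 times the array median at 43 days and 519 to 926 times at 31 days.

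Between the ages, 432 genes rose (7.6% of the genes tested) and 689 fell (12.1%), so 19.7% changed. Genes of macrophages, lysosomes, collagens and collagen crosslinking were among those that rose, while subunits of the respiratory chain, enzymes of fatty acid oxidation and genes of calcium handling were among those that fell. Of these genes, 58 rose and 50 fell by more than 2-fold. The 2 ages did not overlap at all for 36 genes higher at 43 days (0.633% of the genes tested) and 33 genes lower (0.581%). Scaling set the balance between rises and falls: 38.5% of the calls were rises after median centring, 43.4% after quantile normalization (576 higher, 751 lower) and 76.8% with signals as deposited (1017 higher, 307 lower). The median of all genes was -0.04 after centring and 0.16 as deposited, and changes are given relative to the centred arrays. Of the 432 rises, 429 were called under all 3 scalings, and of the 689 falls, 306 were. In bulk tissue, fewer cells of a type and less RNA per cell cannot be told apart.

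The largest rise was in Mmp3, which encodes stromelysin-1, a secreted protease that cuts matrix proteins. Its lowest, median and highest levels were 2.05, 3.01 and 3.59 at 43 days, against -0.55, 0.26 and 1.19 at 31 days. Every 43-day heart lay above every 31-day heart, and the difference was 2.62 ± 0.28 (adjusted p = 7.19e-12, 6.16-fold). Lox encodes lysyl oxidase, which crosslinks collagen and elastin. It had levels of 2.75, 3.32 and 3.98 at 43 days, against -0.70, 0.98 and 1.77 at 31 days, again without overlap, and a difference of 2.33 ± 0.38 (adjusted p = 1.59e-06, 5.03-fold). Another, dimmer Lox probe set differed by 0.07. Igfbp3, a carrier of insulin-like growth factors, measured 1.16, 2.27 and 3.02 at 43 days, against -2.44, 0.74 and 1.63 at 31 days, and the groups overlapped. It differed by 1.98 ± 0.33 (adjusted p = 2.09e-06), with 1.02 for its other probe set. Sprr1a, a small proline-rich protein that stressed cardiomyocytes express, had levels of 2.86, 3.77 and 4.26 at 43 days, against 0.96, 2.02 and 2.58 at 31 days. The 2 ages were fully separate, with a difference of 1.84 ± 0.28 (adjusted p = 3.29e-07, 3.58-fold). Ccn2 encodes connective tissue growth factor, which acts on fibroblasts. Its levels of 3.40, 4.27 and 4.81 at 43 days, against 1.93, 2.70 and 3.16 at 31 days did not overlap, and it differed by 1.61 ± 0.20 (adjusted p = 1.09e-09). The others among the 15 largest rises were Cyp1b1, a cytochrome P450, at 1.84, the macrophage lectin gene Chil3 at 1.74, the chemokine gene Cxcl14 at 1.71, Rnf149 at 1.65, the haemoglobin scavenger gene Hp at 1.61, S100a8 at 1.58, the chemokine gene Ccl9 at 1.55, S100a9 at 1.54, Col5a2 at 1.53 and the semaphorin gene Sema4d at 1.52.

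**Figure D1:**
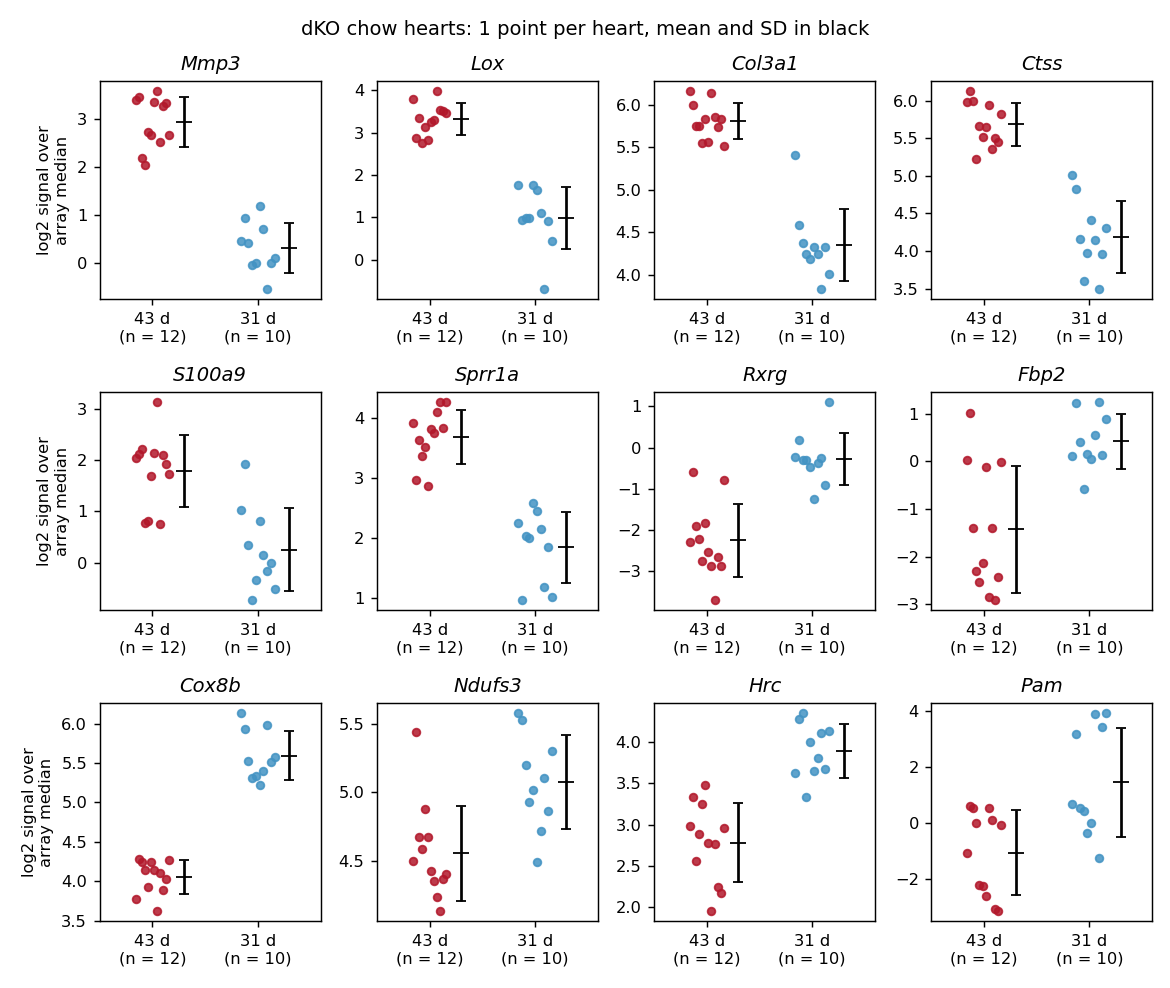
Level of 12 genes in each heart (log2 signal over the array median, vertical axis), with dKO chow hearts at 43 days (12 points) left of those at 31 days (10 points) and bars for mean and SD. Mmp3, Lox, Col3a1, Ctss and Sprr1a separate the ages upward and Cox8b downward, while S100a9, Rxrg, Fbp2, Ndufs3, Hrc and Pam overlap.

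Falls were led by Pam, which encodes an enzyme that amidates peptide hormones, with levels of -3.18, -0.58 and 0.58 at 43 days, against -1.25, 0.60 and 3.91 at 31 days. At 31 days 4 of the 10 hearts were between 3.16 and 3.91 and the others at 0.67 or lower, and at 43 days 5 of the 12 hearts were at -2.24 or lower. The groups overlapped widely, and the difference was -2.51 ± 0.71 (adjusted p = 0.00611). Rxrg encodes the retinoid X receptor gamma, a partner of nuclear receptors in muscle. It measured -3.72, -2.42 and -0.59 at 43 days, against -1.25, -0.30 and 1.11 at 31 days and differed by -1.98 ± 0.29 (adjusted p = 1.19e-07), with overlap of the highest 43-day and the lowest 31-day hearts. Ces1d, a carboxylesterase that hydrolyses lipid esters, fell by 1.96 on the log2 scale (adjusted p = 8.95e-06), and its other probe set fell by 1.97. Fbp2 is the muscle fructose-1,6-bisphosphatase of glycogen synthesis from lactate. Its levels were -2.92, -1.78 and 1.02 at 43 days, against -0.57, 0.28 and 1.25 at 31 days, a difference of -1.85 ± 0.34 (adjusted p = 2.28e-05). The 4 highest hearts at 43 days, from -0.12 to 1.02, reached into the 31-day range. Mgst3, a microsomal glutathione transferase, had levels of 2.33, 3.03 and 3.45 at 43 days, against 4.32, 4.63 and 5.20 at 31 days, with no overlap and a difference of -1.76 ± 0.18 (adjusted p = 9.20e-13). Cox8b encodes the heart and muscle form of a cytochrome oxidase subunit. Its levels of 3.62, 4.12 and 4.29 at 43 days, against 5.22, 5.52 and 6.13 at 31 days were also separate, with a difference of -1.54 ± 0.19 (adjusted p = 4.60e-10) and of -1.15 for its other probe set. The 15 largest falls also held Actb at -1.68 (another probe set at -0.64), the proteasome assembly gene Psmg2 at -1.63, the glutathione transferase gene Gsta4 at -1.63, the Wnt coreceptor gene Lrp5 at -1.45, the T cell surface gene Cd6 at -1.44, a probe set annotated to Mir686 at -1.44, the cilium gene Ift81 at -1.43, the smooth muscle calponin gene Cnn1 at -1.38 and the sodium pump subunit gene Atp1b2 at -1.38.

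Promoter windows show the sequence around the start of genes that moved far or rose with the macrophage genes. They run from 250 bases before to 50 bases after the gene start, 300 bases in all, and come from RefSeq on GRCm38.p6. Of the 15 largest rises and falls, the windows of Mmp3, Igfbp3, Cyp1b1, Pam, Rxrg and Fbp2 are printed. Lox rose more than Igfbp3 and Ces1d fell more than Fbp2, but neither Lox nor Ces1d has a printed window. The windows of Ctss and S100a8 were added after their values were seen because they hold the PU.1 letters. Capitals mark a searched motif: GAGGAAGT, read by the myeloid factor PU.1, CACGTG, the E-box, or TCAAGGTCA, read by oestrogen-related receptors. Both strands were searched, and no printed window holds more than 1 of the 3 motifs. Pam and Rxrg have 2 windows each in the table, of which the first is printed. The windows lie at chr9:7445572-7445871 (Mmp3, plus strand), chr11:7213874-7214173 (Igfbp3, minus strand), chr17:79715012-79715311 (Cyp1b1, minus strand), chr1:98095597-98095896 (Pam, minus strand), chr1:167598112-167598411 (Rxrg, plus strand), chr13:62858351-62858650 (Fbp2, minus strand), chr3:95526536-95526835 (Ctss, plus strand) and chr3:90668821-90669120 (S100a8, plus strand).
Mmp3: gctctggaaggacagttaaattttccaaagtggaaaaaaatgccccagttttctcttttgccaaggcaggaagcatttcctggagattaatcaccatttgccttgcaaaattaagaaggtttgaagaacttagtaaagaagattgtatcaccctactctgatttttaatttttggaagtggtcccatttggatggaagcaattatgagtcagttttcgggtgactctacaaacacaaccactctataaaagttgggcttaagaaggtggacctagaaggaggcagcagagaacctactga
Igfbp3: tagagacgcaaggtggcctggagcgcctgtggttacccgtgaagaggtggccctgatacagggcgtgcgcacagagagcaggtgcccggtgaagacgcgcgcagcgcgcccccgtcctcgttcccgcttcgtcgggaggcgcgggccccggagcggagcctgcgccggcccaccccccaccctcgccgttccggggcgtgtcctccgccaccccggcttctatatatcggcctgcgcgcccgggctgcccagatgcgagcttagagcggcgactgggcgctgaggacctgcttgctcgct
Cyp1b1: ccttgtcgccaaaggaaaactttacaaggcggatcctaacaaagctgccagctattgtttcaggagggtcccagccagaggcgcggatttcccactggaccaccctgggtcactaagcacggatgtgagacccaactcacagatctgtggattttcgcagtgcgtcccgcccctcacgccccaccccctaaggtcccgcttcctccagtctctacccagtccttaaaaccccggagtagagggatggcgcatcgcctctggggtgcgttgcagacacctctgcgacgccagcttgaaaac
Pam: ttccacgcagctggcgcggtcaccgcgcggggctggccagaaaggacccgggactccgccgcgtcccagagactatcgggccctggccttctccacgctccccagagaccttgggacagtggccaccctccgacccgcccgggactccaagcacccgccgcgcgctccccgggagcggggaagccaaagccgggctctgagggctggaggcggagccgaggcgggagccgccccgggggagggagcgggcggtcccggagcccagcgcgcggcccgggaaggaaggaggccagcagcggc
Rxrg: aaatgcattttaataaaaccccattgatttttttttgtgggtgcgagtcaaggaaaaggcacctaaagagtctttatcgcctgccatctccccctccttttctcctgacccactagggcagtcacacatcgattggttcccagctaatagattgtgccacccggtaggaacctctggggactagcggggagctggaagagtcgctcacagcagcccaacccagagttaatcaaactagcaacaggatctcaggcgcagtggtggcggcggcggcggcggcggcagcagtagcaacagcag
Fbp2: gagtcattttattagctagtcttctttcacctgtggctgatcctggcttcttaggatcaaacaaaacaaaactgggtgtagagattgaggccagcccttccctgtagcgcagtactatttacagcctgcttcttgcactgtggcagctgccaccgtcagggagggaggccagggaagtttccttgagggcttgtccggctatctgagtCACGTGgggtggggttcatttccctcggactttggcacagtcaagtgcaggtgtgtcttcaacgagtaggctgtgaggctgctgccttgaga
Ctss: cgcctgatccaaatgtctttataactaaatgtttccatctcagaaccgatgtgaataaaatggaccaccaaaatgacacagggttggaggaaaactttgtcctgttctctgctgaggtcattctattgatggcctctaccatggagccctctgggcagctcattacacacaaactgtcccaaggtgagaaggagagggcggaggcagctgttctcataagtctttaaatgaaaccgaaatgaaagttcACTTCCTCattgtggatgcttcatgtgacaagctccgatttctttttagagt
S100a8: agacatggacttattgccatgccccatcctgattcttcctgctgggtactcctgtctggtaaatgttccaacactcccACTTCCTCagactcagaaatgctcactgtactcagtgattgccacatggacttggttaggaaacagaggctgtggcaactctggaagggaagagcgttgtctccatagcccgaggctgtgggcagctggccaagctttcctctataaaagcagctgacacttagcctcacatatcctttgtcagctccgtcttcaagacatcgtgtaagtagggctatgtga
The Mmp3 window was 40% G and C with 1 CpG, while the Igfbp3 and Pam windows were 71.7% and 76.3% G and C with 37 and 35 CpGs. Fbp2 holds an E-box that starts 42 bases before the gene start. The PU.1 letters lie on the other strand in both S100a8 and Ctss, so they are printed in reverse complement, from 172 bases before the gene start in S100a8 and from 2 bases before it in Ctss.

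Windows were found for 340 of the 432 genes that rose and 559 of the 689 that fell. The PU.1 letters were in 21 of 446 windows of genes that rose (4.71%) and in 7 of 722 windows of genes that fell (0.970%), beside 2.69% of the windows of all genes tested and 3.20% of all windows in the table. The E-box was in 10.5% of windows of risen genes and 7.76% of windows of fallen genes (9.98% for all genes tested, 7.15% for all windows). The oestrogen-related receptor letters were in 0.448% and 0.416% (0.238% and 0.423%). These shares are descriptions without a test, and a match of letters is not a bound site.

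Macrophage genes rose as a group. Of 30 tested, 23 rose and 0 fell, with a median difference of 0.74 beside -0.04 for all genes. Ctss encodes cathepsin S, the protease that trims the invariant chain in antigen-presenting cells. Its levels were 5.22, 5.65 and 6.13 at 43 days, against 3.49, 4.15 and 5.01 at 31 days, and the ages did not overlap (1.5 ± 0.19, adjusted p = 1.01e-09, 2.82-fold). Mpeg1, the macrophage perforin-like gene, had levels of 4.67, 5.22 and 5.56 at 43 days, against 3.18, 3.98 and 4.82 at 31 days and differed by 1.20 ± 0.15 (adjusted p = 8.50e-10). Its groups overlapped slightly. Lyz2, the myeloid lysozyme gene, differed by 1.13 ± 0.15, and Itgb2, the shared chain of the leukocyte integrins, by 1.25 ± 0.35. C1qb, a chain of complement C1q made by macrophages, rose by 0.82, and Cd14, the lipopolysaccharide coreceptor gene, by 0.70. In both, the highest 31-day heart was replicate 1, at 5.08 for C1qb and 3.35 for Cd14. The summed signal of 6 defining macrophage markers was 137 to 226 times the array median at 43 days and 53.6 to 142 times at 31 days, with 4 of the 6 markers higher. The lowest 43-day sum lay just under the highest 31-day sum.

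Neutrophil and monocyte genes were fewer on the array, and 5 of 9 tested rose (median 0.83). S100a8 and S100a9 form calprotectin, the main cytosolic protein of neutrophils. S100a8 had levels of 1.69, 2.25 and 3.99 at 43 days, against -0.09, 0.64 and 2.21 at 31 days, with a difference of 1.58 ± 0.30 (adjusted p = 2.52e-05). Its 43-day hearts spread widely and overlapped those at 31 days. S100a9 had levels of 0.74, 1.98 and 3.14 at 43 days, against -0.74, 0.07 and 1.93 at 31 days, with the same kind of overlap (1.54 ± 0.37, adjusted p = 0.00125). Plac8, expressed in monocytes and neutrophils, rose by 1.20. The 6 defining neutrophil markers summed to 11.8 to 32.1 times the array median at 43 days and 7.52 to 14.3 times at 31 days. That sum includes S100a8 and S100a9, which were the 2 that rose among the 4 markers tested. T and B cell markers were scarce. No Cd3 chain passed the filter, and the summed T cell markers were 0.527 to 0.997 times the median at 43 days and 0.495 to 1.36 times at 31 days. Of 6 tested T and NK cell genes only Cd6 passed, and it fell. None of 5 B cell or 3 mast cell genes passed.

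Of 14 chemokine and receptor genes, 6 rose and 1 fell, with a median of 0.90. Cxcl14, a chemokine of epithelia and fibroblasts, had levels of 0.93, 1.26 and 1.89 at 43 days, against -1.34, -0.29 and 0.46 at 31 days, with no overlap (1.71 ± 0.29, adjusted p = 2.42e-06). The macrophage and myeloid chemokine genes Ccl9 and Ccl6 rose by 1.55 and 1.16, and Ccl7, which attracts monocytes through CCR2, rose by 1.22. Cxcl12, the chemokine that retains progenitors in bone marrow, was at -0.40 on its brightest probe set, the list's one fall, but at 1.02 and -0.35 on others, so its direction is unsettled. It is named here after its value was seen. Among 18 cytokine and receptor genes, 8 rose and 0 fell (median 0.34). Socs3, a feedback inhibitor of cytokine signalling through STAT3, had levels of 0.81, 1.18 and 2.11 at 43 days, against -0.83, 0.08 and 0.72 at 31 days. It separated the ages and differed by 1.31 ± 0.33 (adjusted p = 0.00178). Receptors for oncostatin M (Osmr, 0.76), interleukin-1 (Il1r1, 0.67) and tumour necrosis factor (Tnfrsf1b, 0.63) also rose.

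Complement genes rose in 6 of 12 cases (median 0.45). They included the C3a receptor gene C3ar1 (0.89), the C1 protease gene C1ra (0.83) and the C1 inhibitor gene Serping1 (0.58). Of 29 lysosomal genes, 19 rose and 0 fell, with a median of 0.49. Lgmn, the asparaginyl protease legumain, rose by 1.0, Ctsl, the gene of cathepsin L, by 0.72, and Npc2, a carrier of cholesterol out of lysosomes, by 0.64. Grn, the progranulin gene, rose by 0.71, but a second probe set differed by -0.48, and the mean of its probe sets did not pass. Genes of MHC class II presentation rose in 3 of 8 cases (median 0.61): H2-Aa by 1.10, H2-DMa by 1.08 and the invariant chain gene Cd74 by 0.74. The H2-Aa call was lost in 5 of 37 alternatives. Among them were the fits without 31-day replicate 4, 8 or 10 (adjusted p of 0.0669, 0.0719 and 0.0545) and with the Gapdh ratio as a covariate. A second H2-DMa probe set differed by 0.08. MHC class I genes gave 0 rises and 0 falls among 10. The interferon list gave 2 rises, Irf8 at 0.96 and Ifi204 at 0.93, and 1 fall among 23. Its median was -0.04 after centring and turned to 0.16 with signals as deposited.

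Collagen genes rose in part. Of 17 collagen genes, 7 rose and 1 fell (median 0.21). Col3a1 encodes type III collagen, abundant in young scar. Its levels were 5.52, 5.80 and 6.16 at 43 days, against 3.83, 4.29 and 5.41 at 31 days, without overlap, and it differed by 1.46 ± 0.14 (adjusted p = 6.62e-13, 2.74-fold), with 1.16 and 1.47 for its other probe sets. Replicate 1 was the highest 31-day heart. Col5a2, a chain of the type V collagen that seeds fibrils, had levels of 4.20, 4.65 and 5.02 at 43 days, against 2.44, 3.01 and 4.10 at 31 days and was also fully separate (1.53 ± 0.16, adjusted p = 6.36e-12). Col1a1, a chain of type I collagen, differed by 0.92 ± 0.15 (adjusted p = 2.45e-06) and by 0.38 on another probe set. Col1a2, the other type I chain, was at -0.28 on its brightest probe set, the list's one fall, but at 1.10 on another, so its direction is unsettled. It is named after its value was seen. The chains of basement membrane type IV collagen, Col4a1 at 0.07 and Col4a2 at -0.04, did not pass and are likewise named after the values were seen. Among 11 collagen-modifying enzymes, 2 rose, Lox and Crtap, a partner of collagen prolyl hydroxylation (0.54).

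Matrix glycoproteins and proteoglycans gave 8 rises and 2 falls among 27 (median 0.28), and 15 and 0 with signals as deposited. Postn encodes periostin, a matrix protein of activated cardiac fibroblasts. It had levels of 5.19, 5.70 and 6.17 at 43 days, against 3.82, 4.19 and 4.98 at 31 days and did not overlap (1.40 ± 0.17, adjusted p = 4.69e-10). Bgn, the small proteoglycan biglycan, was also separate at 6.19 to 6.68 at 43 days and 5.41 to 5.91 at 31 days (0.81 ± 0.10). Tgfbi rose by 1.16 and Fn1, the fibronectin gene, by 0.65. Of 10 metalloproteinase and inhibitor genes, 5 rose and 0 fell. Besides Mmp3 they included Timp1, an inhibitor of matrix proteases, at 1.33, the membrane proteases Adam9 at 1.07 and Mmp14 at 0.49. Among 23 genes of TGF-beta, activin and CCN signals, 5 rose, with Ccn2 first and the repressor gene Tgif1 at 0.86. The summed signal of 6 defining fibroblast markers was 262 to 340 times the array median at 43 days and 161 to 241 times at 31 days, so the ranges did not meet. Of the 6 markers, 4 were higher, and the sum includes Col1a1, Col3a1 and Postn, already given. The list of myofibroblast and smooth muscle genes gave 3 rises, with S100a4 largest at 1.13, and 3 falls among 24. Over all genes tested 7.6% rose and 12.1% fell. With signals as deposited that list gave 8 rises and 1 fall. The summed smooth muscle markers were 14.6 to 19.8 times the median at 43 days and 14.3 to 26.6 times at 31 days.

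Of 22 genes of muscle stress, 10 rose and 3 fell (median 0.33). Rises came from Sprr1a, Ccn2 and Timp1, already given, and from Uck2, a uridine kinase, at 1.02 and Rtn4, the reticulon Nogo, at 0.95. Nppa encodes atrial natriuretic peptide, the hormone that ventricles express under load. It had levels of 5.25, 5.73 and 6.23 at 43 days, against 4.81, 5.21 and 5.88 at 31 days, and a modest rise of 0.46 ± 0.13 (adjusted p = 0.00425) on overlapping groups. Nppb, the gene of B-type natriuretic peptide, did not pass at 0.02 ± 0.23 (adjusted p = 0.966), a gene chosen after its value was seen. Fhl2, a LIM protein of the sarcomere, fell by 0.83 on the log2 scale. S100, annexin and galectin genes gave 9 rises and 1 fall among 23. S100a4, a calcium-binding protein of fibroblasts and leukocytes, rose by 1.13, and Anxa1, the anti-inflammatory annexin, by 0.99 without overlap of the ages. Immediate early factors gave 7 rises and 0 falls among 23, including Ier3 (1.16), Fos (0.96), Atf3 (0.92) and Junb (0.90). Adhesion genes of leukocytes and their partners rose in 4 of 14 cases, with Icam1, the integrin ligand of activated endothelium, at 0.87.

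Contractile and electrical genes of cardiomyocytes fell in part. Of 18 cardiomyocyte genes, 12 fell and 1, Nppa, rose, with a median of -0.45 (-0.25 as deposited). In the calcium handling list 7 of 11 fell and 0 rose (median -0.46), and 4 fell with signals as deposited. Hrc encodes the histidine-rich calcium-binding protein of the sarcoplasmic reticulum. Its levels were 1.95, 2.83 and 3.48 at 43 days, against 3.34, 3.90 and 4.35 at 31 days, with little overlap (-1.11 ± 0.15, adjusted p = 2.56e-08). Ryr2, the calcium release channel, differed by -0.50 ± 0.11 (adjusted p = 0.000617), and the calcium store genes Casq1 and Casq2 by -1.10 and -0.48. The Casq2 call was lost with signals as deposited (-0.29). Ion channel and pump genes gave 9 falls and 0 rises among 15, with 5 falls as deposited. Kcnj11 and Abcc9, the pore and the regulatory subunit of the ATP-sensitive potassium channel, fell by 1.01 and 0.72 on the log2 scale.

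Sarcomere genes divided. Of 25, 9 fell and 2 rose, with a median of -0.15 that turned to 0.05 with signals as deposited (5 higher, 7 lower). Myl7, the atrial regulatory light chain gene, had levels of 3.15, 4.36 and 5.23 at 43 days, against 5.06, 5.54 and 6.29 at 31 days and differed by -1.30 ± 0.16 (adjusted p = 1.97e-09). Its lowest 31-day hearts overlapped the 43-day range. The thin filament genes Tnni3 and Tnnc1 fell by 0.54 and 0.51, whereas Tpm1, the main tropomyosin gene, rose by 0.78. Signalling genes downstream of the beta-adrenergic receptor gave 3 rises, with the inhibitory G protein gene Gnai3 at 0.88, and 3 falls, with the adenylyl cyclase gene Adcy6 at -0.58 and the protein kinase A catalytic subunit gene Prkaca at -0.67, among 14. The 6 defining cardiomyocyte markers gave 3 falls.

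Genes of the respiratory chain fell in large part. Of 27 subunits of complex I, which passes electrons from NADH to ubiquinone, 25 fell and 0 rose. Their median was -0.67 after centring and -0.48 as deposited, where 22 still fell. Ndufa3 had levels of 4.92, 5.15 and 5.55 at 43 days, against 5.57, 6.03 and 6.33 at 31 days, with no overlap (-0.84 ± 0.11, adjusted p = 3.28e-09). Ndufa13 and Ndufb7 were also fully separate between the ages, at -0.72 ± 0.10 and -0.72 ± 0.11. Ndufs3, a core subunit, measured 4.13, 4.46 and 5.44 at 43 days, against 4.49, 5.06 and 5.58 at 31 days and differed by -0.52 ± 0.12 (adjusted p = 0.001), with overlap. Of 37 genes of complexes II to V, 25 fell and 0 rose (median -0.50). Besides Cox8b, the muscle form Cox7a1 fell by 1.30 on the log2 scale and Uqcr11, a subunit of complex III, by 1.18 without overlap. The citrate cycle and pyruvate dehydrogenase list gave 13 falls and 1 rise among 23 (median -0.43). Among the falls were Idh3a (-0.70) and Idh2 (-0.67), isocitrate dehydrogenases, and Pdhb (-0.67).

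Fatty acid uptake and oxidation gave 20 falls and 1 rise among 34 genes (14 and 2 with signals as deposited), with a median of -0.46. Cpt2, the carnitine palmitoyltransferase of the inner mitochondrial membrane, had levels of 3.17, 3.62 and 3.97 at 43 days, against 4.0, 4.26 and 4.53 at 31 days, without overlap (-0.67 ± 0.10, adjusted p = 4.27e-07). Eci1, an isomerase for unsaturated fatty acids, fell by 0.77 and Cd36, the fatty acid transporter also made by endothelium, by 0.57. The breakdown of ketone bodies and branched-chain amino acids gave 8 falls among 11, but 3 with signals as deposited. Oxct1, which activates ketone bodies, was at -0.56 and Ivd at -0.69. Glycolysis genes went both ways, with 4 rises and 9 falls among 28 (8 and 7 as deposited), and a median of -0.14 that turned to 0.06 as deposited. Slc2a4, the insulin-responsive glucose transporter, fell by 0.87, Pygm, the muscle glycogen phosphorylase, by 0.85 and Pfkm, the muscle phosphofructokinase, by 0.78. Creatine kinase and carrier genes gave 2 rises and 9 falls among 16, and 3 and 5 as deposited. The mitochondrial creatine kinase gene Ckmt2 was at -0.57, and the cytosolic Ckm at -1.37 on its brightest probe set and 0.86 on another, so its direction is unsettled. Nuclear receptor and regulator genes gave 7 falls and 0 rises among 22, but 2 falls and 1 rise as deposited. Their median turned from -0.15 under centring to 0.05 as deposited. Rxrg was the largest fall. Esrra, the oestrogen-related receptor alpha, fell by 0.42, with -0.51 on its other probe set. It did not pass with signals as deposited (-0.22).

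**Figure D2:**
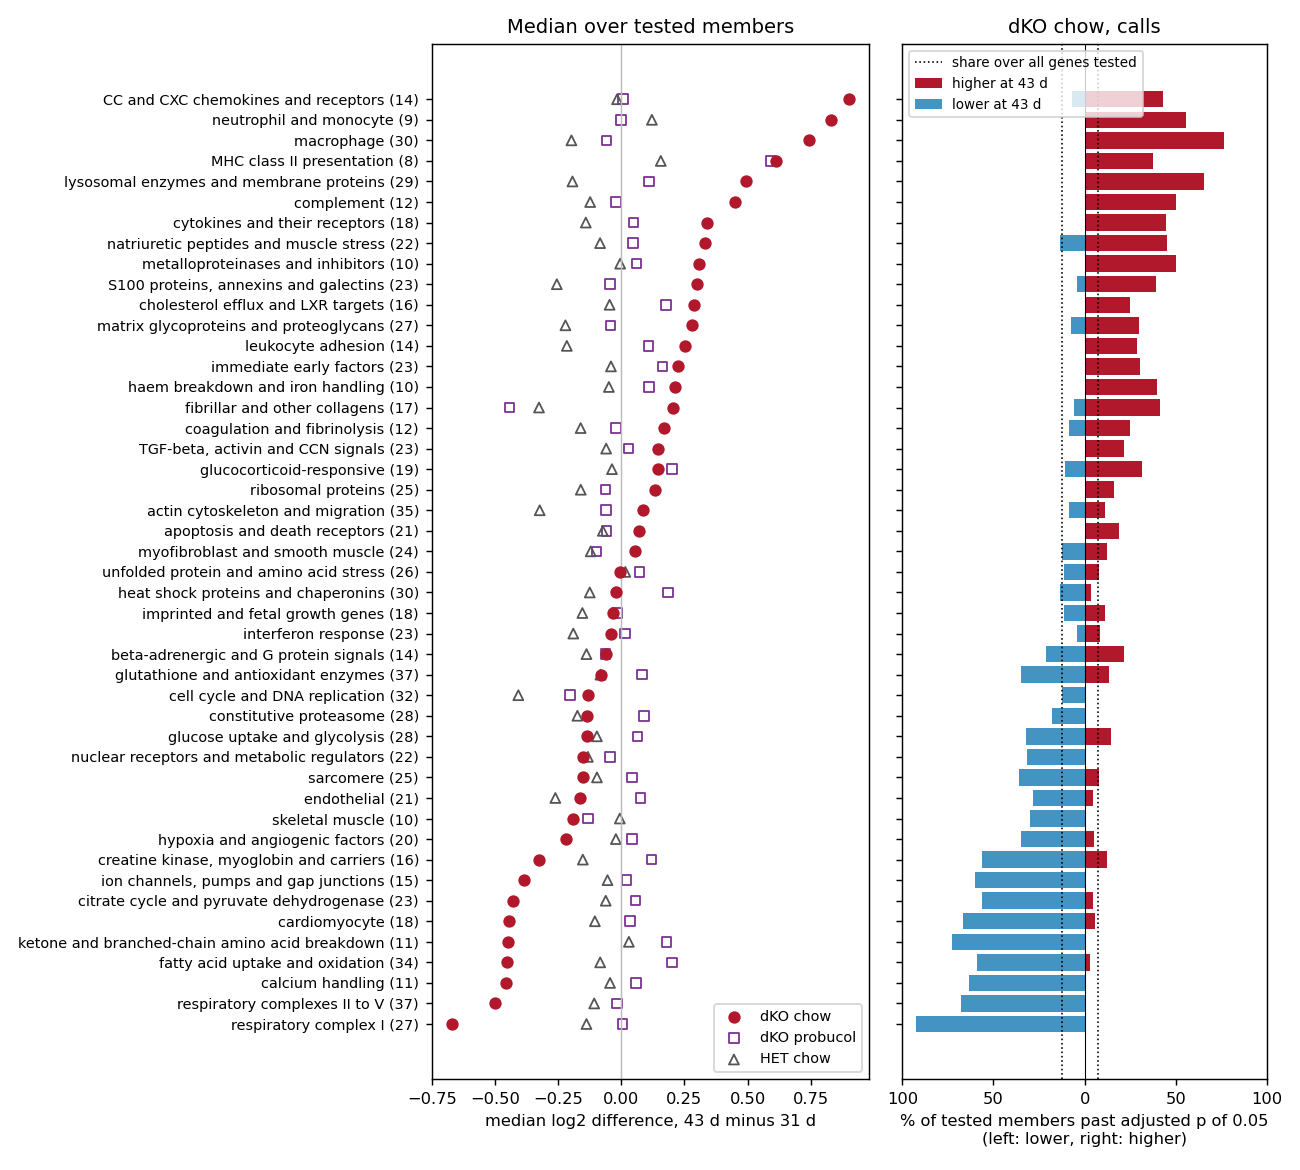
Gene lists with at least 5 tested members and 3 calls: left, the median log2 difference, 43 minus 31 days, in dKO chow, dKO probucol and HET chow hearts; right, the percent of members called in dKO chow hearts, with dotted lines at the shares over all genes (7.6% higher and 12.1% lower). The complex I median is -0.67 in dKO chow hearts and the macrophage median 0.74.

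Antioxidant genes went both ways. Of 37, 5 rose and 13 fell. As deposited 8 rose and 6 fell, and their median of -0.08 turned to 0.12. Among the falls were the glutathione transferase genes Mgst3 and Gsta4, given above, and Gstk1, at -0.80. Prdx3, the mitochondrial peroxiredoxin, had levels of 3.47, 3.61 and 3.82 at 43 days, against 3.98, 4.53 and 4.85 at 31 days, with no overlap (-0.83 ± 0.12, adjusted p = 4.79e-08). Mt2, a metallothionein gene, rose by 0.72, without overlap, and Hmox1, the haem-degrading enzyme, by 0.41, a call that was lost in the fit on the compared groups alone. Of 10 genes of haem breakdown and iron handling, 4 rose, with Hp largest. The summed erythroid markers were 158 to 351 times the array median at 43 days and 175 to 335 times at 31 days, and 0 of 8 erythroid genes rose and 0 fell. Cholesterol efflux genes gave 4 rises and 0 falls among 16, with the phospholipid transfer protein gene Pltp at 0.48.

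Endothelial genes gave 1 rise, the von Willebrand factor gene Vwf at 0.45, and 6 falls among 21. As deposited they gave 1 rise and 2 falls, and their median of -0.16 turned to 0.04. Sox18, a vascular transcription factor, fell by 0.54. The defining endothelial markers summed to 17.9 to 26.3 times the array median at 43 days and 21.3 to 32.2 times at 31 days. In the hypoxia list, Hif1a, the oxygen-regulated factor itself, had levels of 4.47, 4.71 and 5.23 at 43 days, against 3.40, 3.70 and 4.19 at 31 days, without overlap, and was the only member of 20 that rose (1.04 ± 0.11, adjusted p = 1.95e-11). The other 7 that passed fell, with Egln1, the prolyl hydroxylase that marks HIF proteins for destruction, at -0.93 and the growth factor gene Vegfb at -0.46. As deposited that list gave 2 rises and 2 falls, and its median of -0.22 moved to -0.02.

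Chaperone genes gave 1 rise and 4 falls among 30, while 7.6% of all genes tested rose and 12.1% fell. The mitochondrial chaperonin pair Hspd1 and Hspe1 were at -0.66 and -0.49. Hspa4, another of the 4 falls, was at -0.47, but at 0.04 to 0.56 on other probe sets, so its direction is unsettled. With signals as deposited the chaperone list gave 9 rises and 3 falls, and its median of -0.02 turned to 0.18. Proteasome subunit genes gave 5 falls among 28, and Psmb2 did not overlap between the ages (-0.77 ± 0.11, adjusted p = 4.05e-08). As deposited this list gave 3 rises and 2 falls, with a median of -0.14 that turned to 0.06. Ribosomal protein genes gave 4 rises among 25, led by Rpl13a at 0.68 and Rps19 at 0.61, and 18 as deposited. Glucocorticoid-responsive genes gave 6 rises, with Ddit4 at 0.90, and 2 falls, with the cochaperone gene Fkbp4 at -1.08, among 19. Cell cycle genes gave 4 falls and 0 rises among 32, a share of falls near the 12.1% over all genes tested. Ccnd1, the gene of cyclin D1, was at -0.73. Plk1, another of the 4, was at -0.76, but at 0.48 and -0.10 on other probe sets, so its direction is unsettled. As deposited the cell cycle list gave 1 fall, and its median turned from -0.13 to 0.06. Of 18 imprinted and fetal growth genes, 2 rose and 2 fell (4 and 1 as deposited). Igf2 fell by 0.66 without overlap and Mest by 0.70. The Mest call was lost with signals as deposited (-0.50).

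**Figure D3:**
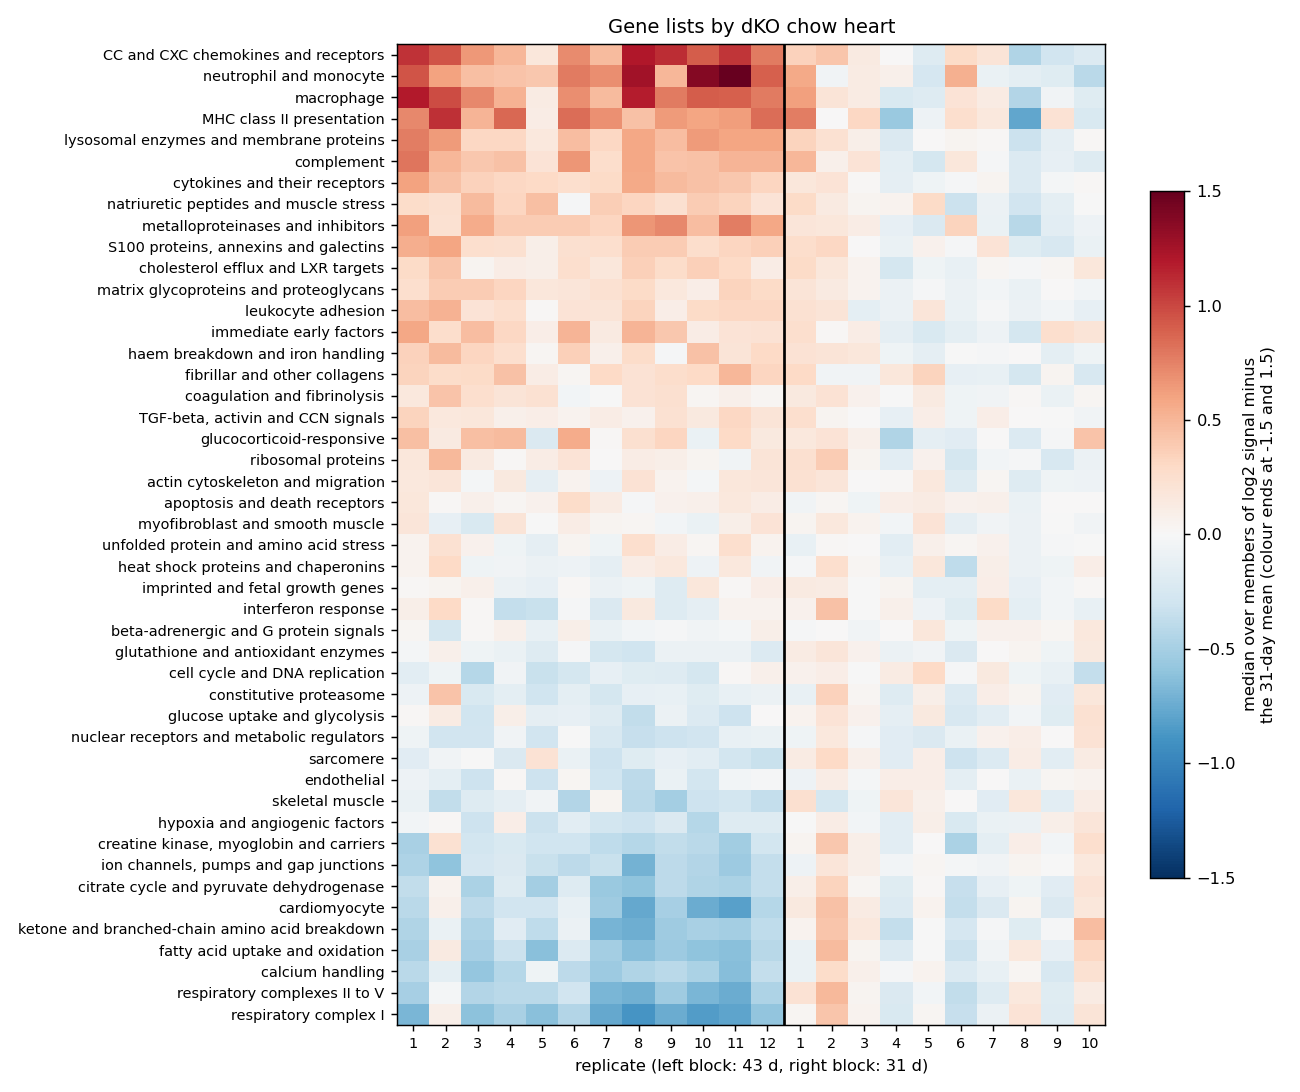
Median over the members of each gene list in each heart, as the log2 difference from the mean of the 31-day hearts (colour), with the 12 hearts at 43 days left of the 10 at 31 days. Complex I is at 0.09 in 43-day replicate 2 and between -0.89 and -0.44 in the other 11 hearts at 43 days.

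The age change was next set against that in HET chow hearts, which tests whether the shift from 31 to 43 days differed with genotype. In HET hearts 8 genes rose (0.141% of genes) and 65 fell (1.14%), 1.28% in all, with a median of -0.10. These calls were lost in large part under other settings: in the larger of 2 sets of arrays read from the residuals 0 genes rose and 3 fell, with signals as deposited 6 and 10, and with only the groups compared 2 and 13. The difference between the genotypes passed for 568 genes (9.99%), 380 (6.69%) with a higher and 188 (3.31%) with a lower change in dKO hearts, against 422 and 464 with quantile normalization. Of the 432 genes that rose in dKO hearts, 269 were among the 380, and of the 689 that fell, 173 were among the 188. These counts share the dKO arrays and are therefore not independent. All 22 dKO hearts fell in the larger array set, against 6 of 9 HET hearts at 43 days and 4 of 10 at 31 days, and with that set alone the difference passed for 245 genes higher and 150 lower.

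A few matrix genes rose in dKO hearts and fell in HET hearts. Col3a1 averaged 5.81 ± 0.21 in dKO hearts at 43 days and 4.36 ± 0.42 at 31 days (SD, n = 12 and 10), whereas HET hearts were at 3.53 ± 0.42 and 4.24 ± 0.31 (SD, n = 9 and 10). The change in HET hearts was -0.71 ± 0.15 (adjusted p = 0.00482 by limma), and the 2 changes differed by 2.17 ± 0.21 (adjusted p = 3.20e-13). Col1a1, Col5a2, Postn and Fstl1, a secreted glycoprotein of fibroblasts, likewise rose in dKO and fell in HET hearts, with changes of -0.86, -0.65, -0.69 and -0.61 in HET. In all, 8 genes rose in dKO and fell in HET hearts. None of these 5 HET falls passed in the larger array set, where the changes were -0.78 for Col3a1, -0.67 for Col1a1, -0.64 for Col5a2, -0.76 for Postn and -0.50 for Fstl1. As deposited only that of Col1a1 passed. The difference between the genotypes passed for all 5 genes in both settings. Of 17 collagen genes, 7 fell in HET hearts (median -0.33), and 10 had a higher change in dKO. In the larger array set these counts were 1 and 9, and as deposited 2 and 10. Of 27 matrix glycoprotein and proteoglycan genes 6 fell in HET hearts, and 11 had a higher and 1 a lower change in dKO. Lox differed most between the genotypes, by 3.16 ± 0.56 (adjusted p = 2.86e-05), with a change in HET hearts of -0.83 that did not pass.

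Some metabolic genes fell further in dKO than in HET hearts. The change in Ces1d was -1.96 in dKO and 0.33 in HET hearts, a difference of -2.30 ± 0.51 (adjusted p = 0.00111). In Fbp2 it was -1.85 and 0.14, a difference of -1.99 ± 0.50 (adjusted p = 0.00479). Of 27 complex I genes, 10 fell further in dKO hearts, and of 37 genes of complexes II to V, 14 did. Of 34 fatty acid genes 9 had a lower and 2 a higher change in dKO hearts, of 28 glycolysis genes 6 and 4, of 23 citrate cycle genes 4 and 0, and of 11 ketone and branched-chain amino acid genes 2 and 0. The complex I median in HET hearts was -0.14. Reln and Cyp2b10 also differed, by -1.92 and -1.79, but neither passed in dKO hearts alone (-0.87 and -0.64). Cxcl14 rose in both genotypes, by 1.71 in dKO and 1.36 in HET hearts, and the difference of 0.36 did not pass (adjusted p = 0.661). The HET rise was not called in the larger array set (0.84). Falls in both genotypes were seen for 4 genes, the cell cycle genes Ccnb2 and Uhrf1, the imprinted gene Mest and the connexin gene Gja1, and for 0 genes both as deposited and in the larger array set. Uhrf1 and Gja1 are named because the count is 4, after their values were seen, and another Gja1 probe set differed by 0.0223 in dKO hearts.

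**Figure D4:**
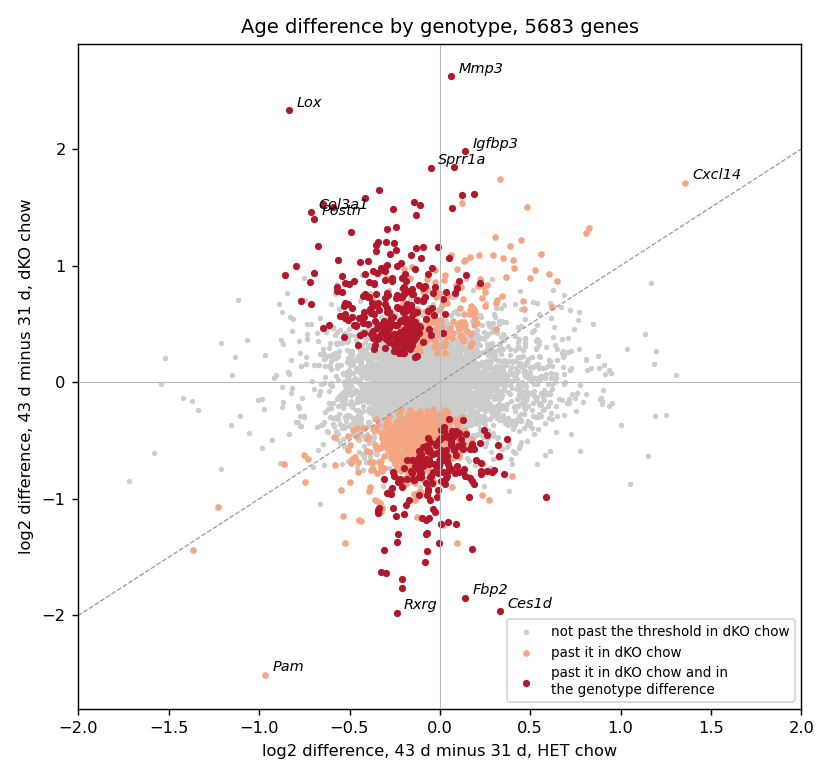
Log2 difference, 43 minus 31 days, in dKO chow hearts (vertical axis) against HET chow hearts (horizontal axis) for 5683 genes, with a dashed line where the 2 are equal. Col3a1, Postn and Lox lie above the line with HET values of -0.71, -0.69 and -0.83, and Fbp2 and Ces1d lie below it.

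In dKO hearts on probucol, only 4 genes changed between the ages (0.0704% of genes), 1 up (0.0176%) and 3 down (0.0528%), with 202 higher and 137 lower at an unadjusted p under 0.05. Inmt, a methyltransferase gene, rose (1.35), and Col1a1, Col3a1 and Eln, the elastin gene, fell (-1.03, -0.89 and -1.20). Inmt and Eln are named because the count is 4. The age change differed between chow and probucol for 370 genes (6.51%), 125 (2.2%) with a higher and 245 (4.31%) with a lower change on chow, and the balance turned with signals as deposited (193 higher, 185 lower). Of the genes that rose on chow 113 were among the 125, and of those that fell 236 were among the 245. These counts share the dKO chow arrays and are likewise not independent. The groups on probucol were smaller, with 6 and 8 hearts.

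S100a9 and Mmp3 showed the largest higher changes on chow. The change in S100a9 was 1.54 on chow and -1.08 on probucol, a difference of 2.61 ± 0.60 (adjusted p = 0.00281 by limma). In Mmp3 it was 2.62 and 0.07, a difference of 2.55 ± 0.45 (adjusted p = 7.26e-05). Sprr1a and Col3a1 differed by 2.47 and 2.34. Among lower changes on chow, Ces1d differed by -2.58 ± 0.56 (adjusted p = 0.00138), Fbp2 by -2.47, Gsta4 by -1.90 and Rxrg by -1.80. The probe set annotated to Mir686 differed by -2.60, with a change of 1.16 on probucol that did not pass. Of 27 complex I genes 14 fell further on chow, and of 34 genes of fatty acid uptake and oxidation 16 did. MHC class II genes had similar medians, 0.61 on chow and 0.59 on probucol, and H2-Aa changed by 1.10 and 1.01. That difference was 0.10 ± 0.62 and did not pass (adjusted p = 0.96). Of the 432 genes that rose in dKO chow hearts, 100 passed both the comparison with HET hearts and that with probucol. Of the 689 that fell, 125 did. Both comparisons hold the dKO chow arrays that gave these calls, so such overlap is partly built in.

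The earlier interval, 31 against 21 days in dKO chow hearts, shares the 31-day arrays with the later one, so the values are set side by side without a comparison. In that interval 383 genes rose (6.74%) and 1430 fell (25.2%), 31.9% of genes in all. Only 4 of the 10 hearts at 21 days fell in the larger array set, against all 10 at 31 days. Median signals as deposited centred on 30.4 at 21 days and 51.0 at 31 days. Age cannot be told apart from array set and signal level here, and this interval was not fitted under other scalings or in the larger set. One 21-day array carries a description with another age, and without it there were 370 and 1300. Col3a1 averaged 4.48 ± 0.31, 4.36 ± 0.42 and 5.81 ± 0.21 at 21, 31 and 43 days (SD, n = 10, 10 and 12). It differed by -0.12 in the early interval, which did not pass, and by 1.46 in the later one. Igfbp3 and Ccn2 likewise did not pass early (-0.50 and 0.31). Lox averaged -0.88 ± 1.18, 0.98 ± 0.73 and 3.31 ± 0.38 at the 3 ages, and both steps passed (1.86 and 2.33). Ctss rose in both intervals (1.33 and 1.5), and so did Timp1 (2.25 and 1.33) and Sprr1a (2.16 and 1.84).

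Among the falls, Cox8b averaged 6.24 ± 0.29, 5.59 ± 0.31 and 4.06 ± 0.21 at 21, 31 and 43 days, with -0.64 in the early and -1.54 in the later interval, both past the threshold. Rxrg fell in both intervals (-1.08 and -1.98). Mgst3 and Fbp2 did not pass early (-0.29 and -0.50) and passed late. Nppa averaged 5.57 ± 0.34, 5.27 ± 0.34 and 5.73 ± 0.29, with -0.30 early, which did not pass, and 0.46 late. Stmn1, the microtubule regulator stathmin, and Mest rose early (0.55 and 0.87) and fell late (-0.66 and -0.70), and both late calls were lost with signals as deposited.

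**Figure D5:**
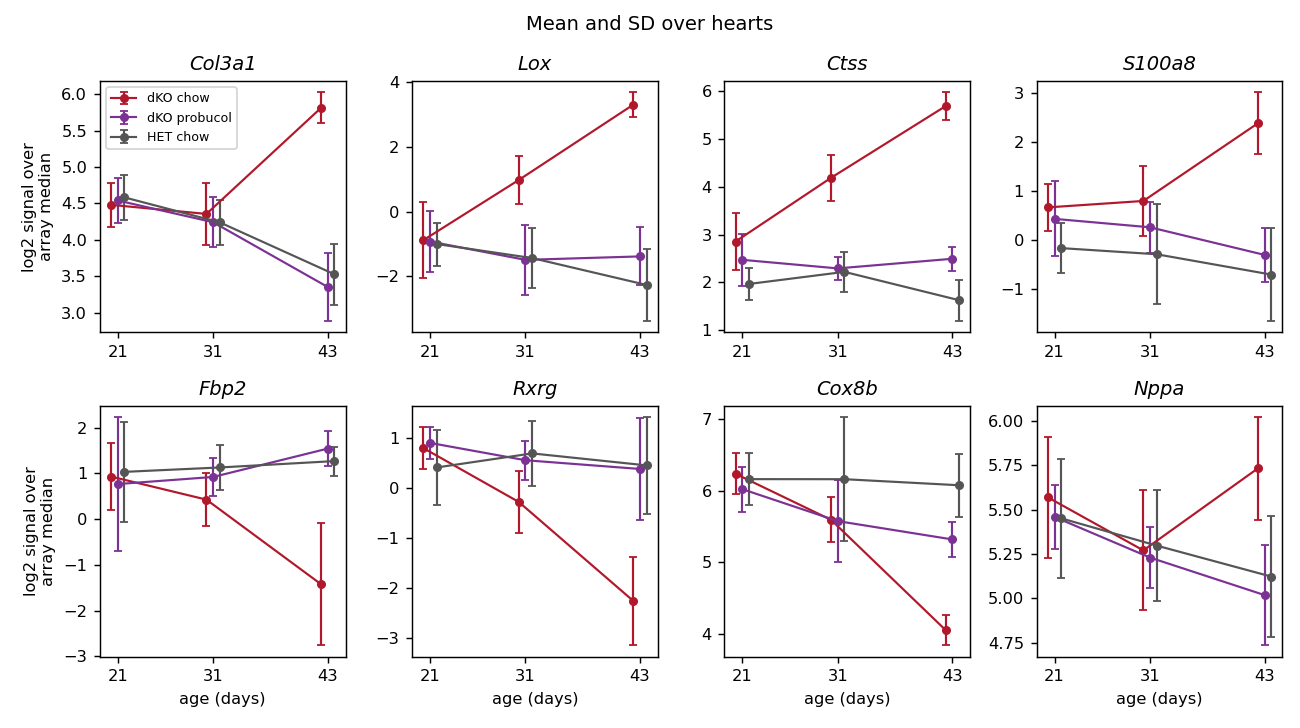
Mean level and SD (log2 signal over the array median) of 8 genes at 21, 31 and 43 days in dKO chow, dKO probucol and HET chow hearts. Col3a1 reaches 5.81 at 43 days in dKO chow hearts, against 4.36 at 31 days, while Nppa differs by 0.46 between those ages.

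Hearts of 1 age varied among themselves. Among the genes that changed, the spread at 43 days was largest for Pam, Fbp2, Ces1d, Cnn1 and Atp1b2. Atp1b2 had levels of -3.56, -0.95 and -0.37 at 43 days, against -1.01, -0.10 and 0.32 at 31 days, and 4 of its 43-day hearts were at -2.55 or lower. The median SD over genes was 0.292 at 43 days and 0.319 at 31 days, and arrays correlated with each other at 0.857 to 0.955. Replicate 2 at 43 days stood apart in the mitochondrial lists. Complex I was 0.09 above the 31-day mean in that heart, while the other 11 were between 0.44 and 0.89 below it, and fatty acid oxidation was at 0.13. Its ratio of 3' to 5' Gapdh signal was 1.28 on the log2 scale, against at most 0.16 in the other 43-day hearts and -0.30 to 0.07 at 31 days, and with that ratio as a covariate 341 genes rose and 752 fell. Without that heart the counts were 394 and 720. The actin ratio set other hearts apart, at 0.91, 0.76 and 0.87 in 31-day replicates 6, 7 and 8, against at most 0.39 at 43 days. With the actin ratio as a covariate 410 genes rose and 738 fell. Replicate 1 at 31 days was the highest of its age in the macrophage list (0.61 above the age mean), and without it 417 rose and 683 fell.

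Levels of 6 gene pairs were correlated within each age, 12 relations in all with Benjamini-Hochberg adjustment. As a check, the 2 hearts farthest from the median of the first gene named were left out, whatever their level of the other gene. Sprr1a and Ndufs3 ran in opposite directions at 43 days, with r = -0.78 and rho = -0.77 (permutation p = 0.00209, adjusted 0.0179, n = 12). Without the 2 hearts farthest from the Sprr1a median r was -0.76 (permutation p = 0.0101, adjusted 0.122). With signals as deposited r was -0.64 (adjusted 0.0924), so the adjusted value did not pass in either. At 31 days Ctss ran with Col3a1 at r = 0.79 and rho = 0.73 (permutation p = 0.00299, adjusted 0.0179, n = 10). Without the 2 farthest hearts r was 0.46 (permutation p = 0.248), so that relation rests on those hearts. Ctss and Hmox1 at 31 days gave r = 0.78 and rho = 0.83 (permutation p = 0.00847, adjusted 0.0339, n = 10), and 0.66 without the 2 farthest (permutation p = 0.0713, adjusted 0.319). With signals as deposited r was 0.68 for both 31-day relations (adjusted 0.0924 each), so neither passed there, and the rho of Ctss with Col3a1 did not pass adjustment either (0.0822). The other 9 relations had adjusted p-values of 0.152 to 0.757.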

How the data were processed

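Heart RNA was extracted with Trizol and biotin-labelled, per the labels' protocols. The deposited values are linear Affymetrix signal intensities, made with MAS5 per the submitters' processing notes, and the authors' scaling between arrays is not stated. Groups came from the titles, genotype, age and diet. Signals were floored at 4.22, the 10th percentile of all values, converted to log2 and centred on each array's median. The floor understates changes of genes that reach it. Probe sets with 1 gene symbol (10855 of 12488) in the upper 60% by mean signal were kept, and the brightest stood for its gene, leaving 5683 genes. limma 3.58.1 (R 4.3.3) with an intensity trend was fitted to 88 arrays and 12 group means, since the small groups then share the spread. The fit was tested on simulated data. Promoters were matched by symbol.

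Named genes were Scarb1, Apoe, the 15 largest rises and falls, up to 4 members of each list by p (2 where none passed), the 5 largest each way in either difference of age changes, the 5 called genes most variable at 43 days, and those of the correlated pairs. The comparison, lists and rules were chosen with earlier results of these data known. Alternatives were other scalings, floors and filters, probe sets averaged per gene, fits on the compared groups alone, a block for the replicate number, no trend, array weights, covariates of RNA quality and sex, the larger array set, a 1.5-fold minimum and leaving out single hearts. Same-numbered hearts correlated at -0.15 to 0.27 after their group means were removed, and the labels do not pair them.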

Additional observations from a re-analysis of the deposited data

Results flagged for a closer look

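Single hearts at 31 days stood far from the other 9 in 11 of 205 named genes (5.37%), by a gap to the nearest heart, relative to the whole range, above Dixon's critical value. Chance gives such a gap in about 1 in 20 groups, so the share is near that of chance. Replicate 1 was the highest 31-day heart for C1qb (5.08), Cd14 (3.35) and Col3a1 (5.41), and the lowest for Cd79a (-0.70). Replicate 2 was the highest for Smad2 (1.54) and the lowest for Lrp5 (-1.91) and Tfrc (3.16). Replicate 6 was the highest for Tpsb2 (1.69) and the lowest for Ckm (1.98). Replicate 4 was the lowest for Gsta4 (-1.56) and replicate 8 for Itgax (0.0338). The 12 hearts at 43 days were not checked in this way.

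The change from 31 to 43 days differed between dKO and HET hearts on chow, by the test of the difference in limma, for Lox (3.16), Mmp3 (2.56), Col5a2 (2.18), Col3a1 (2.17), Postn (2.09), Rxrg (-1.74), Cyp2b10 (-1.79), Reln (-1.92), Fbp2 (-1.99) and Ces1d (-2.30). Lox had 2 probe sets that disagreed.

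Between chow and probucol in dKO hearts it differed for S100a9 (2.61), Mmp3 (2.55), Sprr1a (2.47), Col3a1 (2.34), Lox (2.22), Rxrg (-1.80), Gsta4 (-1.90), Fbp2 (-2.47), Ces1d (-2.58) and the probe set annotated to Mir686 (-2.60).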

How the results depend on the processing

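Over 7546 pairs of a named gene and an alternative, 7372 kept direction and side of the threshold, 137 lost the call, 30 gained one and 7 turned sign. Signals as deposited turned Tpsb2 (0.017), Kit (0.0452), Lpl (0.000682) and Adipor2 (0.0323), and the mean of probe sets turned Tpsb2 (0.0948), Tapbp (-0.0947) and Hspa4 (0.21). Correlations turned sign as deposited at 43 days for Col3a1 with Ndufs3 (-0.14) and Ctss with Hmox1 (0.0904), and at 31 days for Ctss with Ndufs3 (-0.11, and -0.25 without 2 hearts) and Col3a1 with Ndufs3 (-0.27). The causes were not tested. For dKO chow hearts, genes higher and lower were 1017 and 307 as deposited, 679 and 1050 with array weights and 223 and 270 at 1.5-fold. Leaving out single hearts gave 366 to 466 higher and 605 to 720 lower. The replicate block gave 369 and 651, and the numbers do not pair the hearts, 2 of 10 correlating best with their own number. In HET hearts, genes lower were 10 as deposited, 30 with quantile normalization, 13 with only the groups compared, 3 in the larger array set and 41 at 1.5-fold, and genes higher 4 in the upper 40%, 2 with only the groups compared and 0 in the larger set. The difference between genotypes gave 422 higher and 464 lower with quantile normalization, 359 lower with array weights and 245 higher in the larger set. On probucol, genes higher were 2 with quantile normalization, the 30th percentile floor, no trend, the actin ratio, the sex covariate and the larger set, 3 with array weights and 0 with no filter, the upper 40%, the mean of probe sets and the replicate block, and genes lower were 7 with quantile normalization, 15 with array weights and 5 in the larger set. Chow against probucol gave 193 higher and 185 lower as deposited, 233 higher with quantile normalization, 213 with only the groups compared and 282 with array weights, and 506 lower with array weights and 371 with the Gapdh ratio. Dim genes near the floor are the least well measured.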

Other observations

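Several gene groups outside the infarct and energy themes were also measured between 43 and 31 days in dKO chow hearts. Over all genes tested 7.6% rose and 12.1% fell. Of 12 coagulation genes, 3 rose and 1 fell, with the anticoagulant protein S gene Pros1 at 0.76 (adjusted p = 0.000116 by limma). Actin cytoskeleton genes gave 4 rises and 3 falls among 35 (12 and 1 with signals as deposited), with Arpc2, a subunit of the actin-branching Arp complex, at 0.42 and the capping protein gene Capg at 0.98, against 0.33 on another Capg probe set. Genes of apoptosis rose in 4 of 21 cases, with the survival gene Mcl1 at 0.53. Casp4, another of the 4, was at 0.70 (adjusted p = 0.0475 by limma), and its call was lost in 17 of 36 alternatives. Unfolded protein and amino acid stress genes gave 2 rises and 3 falls among 26 (8 and 1 as deposited), and the lipoprotein receptor gene Vldlr fell by 0.74 on the log2 scale, with -0.19 on its other probe set.

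Other groups gave few calls. Of 12 clock genes only Nr1d1 passed (-0.46), and not with signals as deposited. None of 10 adipocyte genes passed. Autophagy and ubiquitin ligase genes gave 1 rise, Gabarapl1 at 0.49, and 1 fall, Map1lc3a at -0.64, among 12. The skeletal muscle list gave 3 falls among 10: Casq1, Ckm, whose direction is unsettled, and Atp2a1 (-0.83, adjusted p = 0.0488 by limma). The Atp2a1 call was lost in 22 of 36 alternatives. Summed defining markers of skeletal muscle were 9.17 to 14.8 times the array median at 43 days and 8.4 to 14.2 times at 31 days. Wt1, an epicardial gene, fell by 0.56 on the log2 scale, and not with signals as deposited.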
